A study of Mus musculus with 6 samples.

Results

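The Kruppel-like factors (KLFs) described here are 10 genes, Klf2, Klf3, Klf4, Klf6, Klf7, Klf9, Klf10, Klf12, Klf13 and Klf16, chosen by name. All 10 were found by gene symbol both among the 18368 genes with read counts and among the 35275 genes with FPKM values, and all 10 passed the filter on low counts that left 14443 genes for testing. They are 10 of 17 numbered Klf genes with FPKM values. RNA was sequenced from haematopoietic stem cells (HSCs), from which every blood lineage descends, of adult mouse bone marrow at about 2000 cells per library. The control group was 3 libraries with the genotype Ramp1+/+, called wild type here. The other group was 3 libraries titled Ramp1 Mut, whose genotype is written Ramp-/- and which are called mutant here. Ramp1 encodes the accessory protein that joins Calcrl to form the receptor for the neuropeptide CGRP, and the study as titled concerns how nociceptive nerves act on the release of stem cells from marrow. The labels give neither strain nor the part of Ramp1 that the allele removes, and they do not say whether each library came from its own animal, so the p-values reflect only how far these libraries scatter, which may be technical.

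KLFs are transcription factors whose C-terminal zinc fingers bind GC-rich DNA and CACCC-type elements, the same letters that the related Sp factors bind. By the part of the protein outside the fingers they are usually sorted into repressors that recruit the corepressor CtBP (Klf3, Klf8, Klf12), mostly activators (Klf1, Klf2, Klf4, Klf5, Klf6, Klf7), and repressors that recruit Sin3 (Klf9, Klf10, Klf11, Klf13, Klf14, Klf16). In blood, Klf2 is known for T cell quiescence and trafficking, Klf4 for monocyte differentiation, Klf3 and Klf1 for red cell development, and several members are induced within minutes by stress, cytokines or hormones.

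The stretches before the start sites of Klf2, Klf4 and Klf6 are shown because Klf2 and Klf4 were the members whose levels varied most between libraries and Klf6 the member that varied least. Each is the 250 bases before the RefSeq start site in GRCm38.p6 (the mm10 assembly), read 5′ to 3′ on the strand of the gene: chr8:72318812-72319061 (plus strand), chr4:55532476-55532725 (minus strand) and chr13:5861239-5861488 (plus strand). Capitals mark CACCC and CCGCCC on either strand, so also GGGTG and GGGCGG, the letters that KLF and Sp fingers bind. Klf2 as counted begins at 72319033, before the RefSeq start site. The end of its window, with the marked GGGTG, therefore lies inside the counted gene.
Klf2: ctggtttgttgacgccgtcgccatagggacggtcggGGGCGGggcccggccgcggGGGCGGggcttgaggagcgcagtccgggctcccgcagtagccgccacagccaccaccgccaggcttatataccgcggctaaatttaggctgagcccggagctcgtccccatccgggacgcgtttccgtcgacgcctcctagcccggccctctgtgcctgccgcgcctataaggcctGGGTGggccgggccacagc
Klf4: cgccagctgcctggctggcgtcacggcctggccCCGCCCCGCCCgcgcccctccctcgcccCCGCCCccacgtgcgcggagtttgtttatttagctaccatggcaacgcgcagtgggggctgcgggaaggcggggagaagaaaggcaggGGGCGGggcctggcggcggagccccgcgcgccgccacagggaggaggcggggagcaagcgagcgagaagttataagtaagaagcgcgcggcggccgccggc
Klf6: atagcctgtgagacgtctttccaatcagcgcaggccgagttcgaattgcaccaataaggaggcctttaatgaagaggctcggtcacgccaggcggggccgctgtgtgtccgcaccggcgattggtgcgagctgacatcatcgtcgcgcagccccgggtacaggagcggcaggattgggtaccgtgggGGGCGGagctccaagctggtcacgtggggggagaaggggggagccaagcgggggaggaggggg
RefSeq windows were found for 8 of the 10 members. CCGCCC was in 6 of these 8, and in 32.7% of the 32851 windows of all genes, while CACCC was in 6 of 8, against 52.0% of all windows. Klf4 held 4 copies of CCGCCC, of which a pair overlaps, Klf2 held 2 and Klf6 held 1. Klf3 (not printed) held the most in the set, with 6 copies of CCGCCC, all read as GGGCGG, and 5 of CACCC on both strands. Its window was 78.4% G and C, against a median of 52.4% over all windows. TGACGTCA, the cyclic AMP response element, was in 0 of the 8 windows and in 1.55% of all windows, and the shorter form TGACG in 5 of 8 and 17.8%. CCAAT was in 3 of 8 windows and 33.8% of all windows, with 4 copies in Klf6 on both strands. These matches are descriptions of letters in a window, not of bound sites.

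The libraries held between 22796771 and 26734561 reads counted in genes. Ramp1 was at 88.3 to 91.4 FPKM in wild-type and 1.35 to 3.53 FPKM in mutant libraries (difference on the log2 scale -5.17 with SE 0.31; adjusted p = 0.00146 by the quasi-likelihood test of edgeR). FPKM is the read count scaled by gene length and library total, so it allows a rough comparison of levels between genes. That comparison rests on the gene length used, and other differences between genes were not corrected. The defining HSC markers were present in every library, among them Kit at 260 to 461, Procr at 51.9 to 72.0, Slamf1 at 18.8 to 26.3 and Hlf at 45.8 to 80.0 FPKM. Summed T and NK cell markers (10 genes, 2 tested) were 6.42 to 9.57 FPKM in wild-type and 6.42 to 11.9 FPKM in mutant libraries, with Cd8a and Ncr1 listed at 0 in every library and Cd3e at no more than 0.196 FPKM. Summed B cell markers (9 genes) were 44.4 to 46.4 FPKM in wild-type and 46.4 to 64.1 FPKM in mutant libraries. Mutant values were higher for 6 of the 6 tested, with 0 called and a median log2 fold change of 0.97. In CPM, mutant libraries were all above wild-type ones for 1 of these 6, against 5.87% of all genes tested. Pax5 was listed at 0 in every library, but B cell marker reads were thus not absent. Replicate 1 of both groups stood apart in its Y-linked reads, with 6527 and 6137 against at most 2 in each of the other 4 libraries.

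The members covered a 288-fold span of mean level. Klf10 was the most abundant member in all 6 libraries and supplied between 52.3% and 62.0% of the summed FPKM of the 10 genes. By mean over the 6 libraries the order was Klf10 (93.4 FPKM), Klf3 (25.0), Klf6 (15.5), Klf9 (13.3), Klf12 (7.21), Klf16 (3.98), Klf13 (3.62), Klf2 (0.923), Klf7 (0.727) and Klf4 (0.325). Thus 4 members lay above 10 FPKM, 3 between 1 and 10 and 3 below 1. Klf10, at rank 841 of the tested genes, was above 94.2% of them, while Klf4 was near the bottom of the tested genes at the 6.25th percentile. Neighbours in this order were separated in every library for Klf10 and Klf3, Klf3 and Klf6, Klf9 and Klf12, Klf12 and Klf16, and Klf13 and Klf2, where the lowest library of the higher gene was above the highest library of the lower gene. The ranges overlapped for Klf6 and Klf9, for Klf16 and Klf13, for Klf2 and Klf7 and for Klf7 and Klf4. Compared within each library, Klf6 was above Klf9 in 5 of 6 libraries and Klf7 above Klf4 in 5 of 6. Klf16 was above Klf13 in 4 of 6 and Klf2 above Klf7 in 3 of 6, so none of these orders held in every library.

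**Figure D1:**
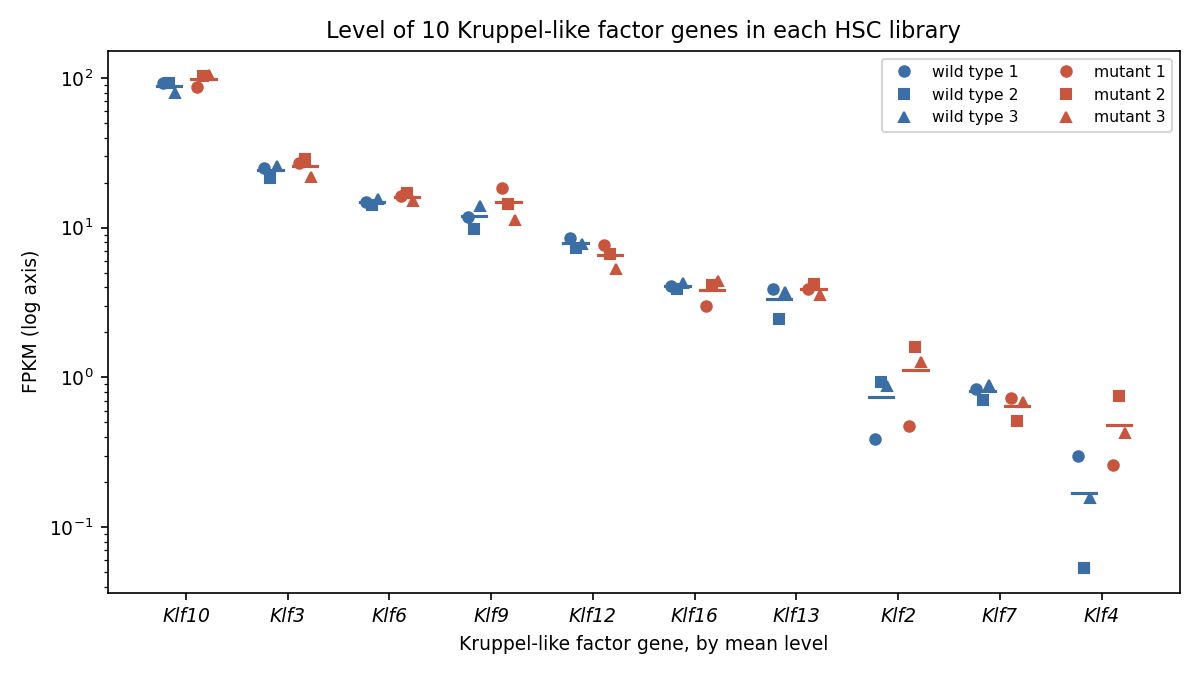
Level of each member in FPKM (log axis) in 3 wild-type (blue) and 3 mutant (red) libraries, with the replicate number shown by the symbol and the group mean by a line. Klf10 sits between 79.9 and 104 FPKM in all libraries, and the symbols of both groups intermix for most members, with wide scatter for Klf2 and Klf4.

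No member passed the test between mutant and wild-type HSCs: 0 of 10 had an adjusted p under 0.05, against 0.0208% of the genes tested (0.00692% higher and 0.0138% lower), and each adjusted p was 0.999 (edgeR quasi-likelihood test). At an unadjusted p under 0.05 there were also 0 of 10, against 3.99% of all genes tested, and DESeq2 gave 0 at either threshold, against 0.284% of genes at the adjusted and 3.98% at the unadjusted one. Values were higher in mutant cells for 7 members and lower for 3, while 50.1% of all genes had higher values. The median log2 fold change over the members was 0.14, beside 0.00030 over all genes tested. The groups did not overlap in CPM (counts scaled to a common library total, after TMM scaling) for 1 of 10 members, Klf7, where mutant libraries were lower, against 10.3% of the genes tested (5.87% higher and 4.38% lower). In these bulk libraries fewer cells that express a gene and less RNA per cell cannot be told apart.

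The precision behind this differed widely between the members. For Klf10, Klf3 and Klf6 the 95% interval of the log2 fold change lay within 0.5 either way, which held for 39.5% of all genes tested. For 8 of 10 members it lay within 1 either way, which held for 68.3% of all genes. The exceptions were Klf2 and Klf4, whose read counts stayed under 100 in every library and whose intervals reached 1.98 and 3.20. For these, a difference of moderate size was not detectable at this depth and spread.

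**Figure D2:**
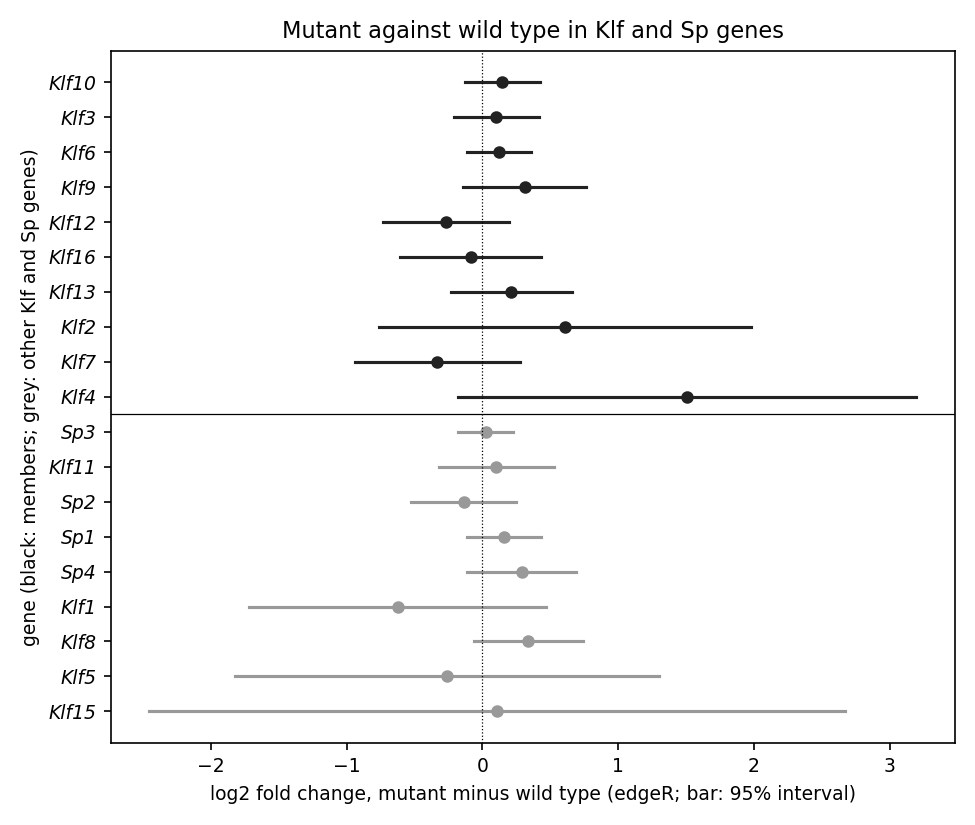
Log2 fold change, mutant minus wild type, with its 95% interval (edgeR, 3 against 3 libraries) for the 10 members (black, ordered by level) and the 9 other tested Klf and Sp genes (grey). All 19 intervals include 0, and those of Klf10, Klf3 and Klf6 are the narrowest among the members.

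Among the members that recruit Sin3, Klf10 is a repressor known as a TGF-beta-inducible early response gene. Klf10 (ENSMUSG00000037465, protein-coding, mm10 chromosome 15, 38294413 to 38300707) had 92.8, 93.3 and 79.9 FPKM in wild-type replicates 1 to 3 and 86.5, 104 and 104 FPKM in mutant replicates 1 to 3. Mutant replicates 2 and 3 were the highest libraries, but mutant replicate 1 was below wild-type replicates 1 and 2, so the groups overlapped. The group means were 88.7 ± 7.58 and 98.1 ± 10.1 FPKM (SD, n = 3 each), and the log2 fold change was 0.15 (SE 0.12, 95% interval -0.13 to 0.42).

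Klf9 (ENSMUSG00000033863, chromosome 19, 23141226 to 23166911) is a glucocorticoid-responsive repressor. It had 11.8, 9.83 and 14.0 FPKM in the wild-type libraries and 18.5, 14.4 and 11.3 FPKM in the mutant libraries. The 2 highest libraries were mutant replicates 1 and 2, while mutant replicate 3 was below wild-type replicate 1. Its log2 fold change was 0.31 (SE 0.20, 95% interval -0.14 to 0.76; means 11.9 ± 2.11 and 14.7 ± 3.59 FPKM). The value was 0.14 without mutant replicate 1 and 0.46 without mutant replicate 3, and 0.12 without both replicate 1 libraries, so the difference rested largely on mutant replicate 1.

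Klf13, known for regulating a chemokine gene in T cells, had 3.90, 2.47 and 3.71 FPKM in wild type and 3.87, 4.21 and 3.57 FPKM in mutant libraries. Wild-type replicate 2 alone was low, and the other 5 libraries lay between 3.57 and 4.21. The log2 fold change of 0.21 (SE 0.19) became 0.050 without that library. Klf13 overlaps Gm27252 on the opposite strand, which had at most 80 reads in a library, and the sources used here do not state whether counting used strand. Klf16 had 4.09, 3.92 and 4.29 FPKM in wild type and 3.002, 4.15 and 4.40 FPKM in mutant libraries. Here mutant replicate 1 alone was low, and the log2 fold change of -0.084 (SE 0.22) was 0.082 without it. For both genes 1 library therefore set the size or the sign of a difference that did not pass the test.

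Of the CtBP-recruiting members, Klf3 (ENSMUSG00000029178, chromosome 5, 64803523 to 64830129) was the second most abundant of the 10. It had 25.1, 21.6 and 25.7 FPKM in wild-type and 26.9, 28.9 and 21.8 FPKM in mutant libraries. The lowest wild-type and the lowest mutant library were nearly level, and the log2 fold change was 0.10 (SE 0.14, 95% interval -0.21 to 0.42). Klf12, which was cloned as a repressor of the gene for AP-2 alpha, had 8.58, 7.34 and 7.72 FPKM in wild type and 7.68, 6.65 and 5.28 FPKM in mutant libraries. Mutant replicates 2 and 3 were the lowest of the 6, mutant replicate 1 fell among the wild-type values, and the log2 fold change was -0.27 (SE 0.20, 95% interval -0.73 to 0.19).

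Among the activator-type members Klf6 was the steadiest gene of the set. Klf6 (ENSMUSG00000000078, chromosome 13, 5861489 to 5870393), a broadly expressed factor known as a growth suppressor, had 14.8, 14.2 and 15.5 FPKM in wild-type libraries and 16.3, 17.03 and 15.1 FPKM in mutant libraries. The highest library exceeded the lowest by 1.20 times, and its SD of log2 CPM over the 6 libraries, 0.092, was larger than that of only 7.12% of the tested genes. The log2 fold change was 0.12 (SE 0.10, 95% interval -0.11 to 0.36). Its close relative Klf7 (ENSMUSG00000025959, chromosome 1, 64029447 to 64122282) was far lower, at 0.834, 0.708 and 0.888 FPKM in wild type and 0.733, 0.513 and 0.684 FPKM in mutant libraries. In CPM the wild-type libraries (6.34, 5.53 and 6.73) were all above the mutant ones (5.51, 3.98 and 5.29), but wild-type replicate 2 and mutant replicate 1 differed by less than 0.1 CPM and in FPKM their order was the reverse. The log2 fold change was -0.33 (SE 0.26, 95% interval -0.94 to 0.28). Klf7 shares chromosome 1 with Ramp1 and ends 27.1 Mb before it; whether its value is tied to that position was not tested.

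Klf2 (ENSMUSG00000055148, chromosome 8, 72319033 to 72321656), the quiescence and trafficking factor, was low in these HSC libraries. Its reads were 18, 43 and 38 in wild-type replicates 1 to 3 and 20, 79 and 58 in mutant replicates 1 to 3, which is 0.384, 0.936 and 0.880 FPKM and 0.475, 1.60 and 1.27 FPKM. Replicate 1 was the lowest library of each group, and mutant replicates 2 and 3 were the highest of all 6. The log2 fold change was 0.61 (SE 0.59, 95% interval -0.76 to 1.98), so the difference between groups was about as large as its error. It was 0.25 without mutant replicate 2, 0.98 without mutant replicate 1 and 0.30 when wild-type replicate 1 was left out.

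Klf4 (ENSMUSG00000003032, chromosome 4, 55527143 to 55532466), a factor of monocyte differentiation and of cell reprogramming, was the lowest member and had the largest difference. Reads numbered 23, 4 and 11 in wild-type libraries, beside 18, 61 and 32 in mutant ones, or 0.299, 0.0531 and 0.155 FPKM and 0.261, 0.753 and 0.426 FPKM. The groups overlapped, since mutant replicate 1 was below wild-type replicate 1. The log2 fold change was 1.51 (SE 0.73, 95% interval -0.18 to 3.20; edgeR unadjusted p = 0.0727, adjusted p = 0.999). Without both replicate 1 libraries, which carry the Y-linked reads, the 2 mutant libraries left were above the 2 wild-type libraries and the value was 2.51 (edgeR adjusted p = 0.9997). It was 2.20 when wild-type replicate 1 was left out, 1.10 when wild-type replicate 2 was, and 1.03 when mutant replicate 2 was. Its adjusted p (edgeR, and DESeq2 for 1 alternative) lay between 0.723 and 0.9999 over all 13 alternatives that gave a value. With 4 reads in wild-type replicate 2, the fold rests on few reads. Markers of monocytes and macrophages, cells in which Klf4 acts, were also summed (9 genes, 5 with higher and 4 with lower values, 0 called). The sums were 530, 513 and 587 FPKM in wild type and 505, 651 and 610 FPKM in mutant libraries. Mutant replicate 2 had the highest sum, as it had for Klf4. The median over these genes of the log2 CPM deviation from each gene's mean ranked the libraries otherwise. By that median mutant replicate 3 was highest, at 0.75 against 0.23 in mutant replicate 2, and mutant replicate 1 was lowest, at -1.29. Klf4 itself was lowest in wild-type replicate 2. The part of such cells in the Klf4 value was not tested.

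The members moved together in part, but not all in the same direction. In mutant replicate 2, 8 of the 10 were above their own 6-library mean (median deviation 0.17), against 5 to 7 in the other libraries. In mutant replicate 2, 6 of the 10 (Klf2, Klf3, Klf4, Klf6, Klf10 and Klf13) had their highest CPM and Klf7 had its lowest. In wild-type replicate 2, 4 of the 10 (Klf4, Klf6, Klf9 and Klf13) had their lowest CPM. The summed FPKM of the 10 genes was 163, 154 and 153 for wild type, beside 164, 182 and 168 for mutant libraries, means of 157 ± 5.26 and 171 ± 9.42. Without Klf10 the sums were 69.8, 61.1 and 72.9 for wild type, beside 77.7, 78.3 and 63.9 for mutant libraries, and mutant replicate 3 fell among the wild-type values. The SD of log2 CPM over the 6 libraries had a median of 0.25 over the members and 0.24 over all genes tested. Klf4 (SD 1.13) and Klf2 (0.77) were at the 93.4th and 87.7th percentiles of the tested genes in this measure, which also rises as reads become few.

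**Figure D3:**
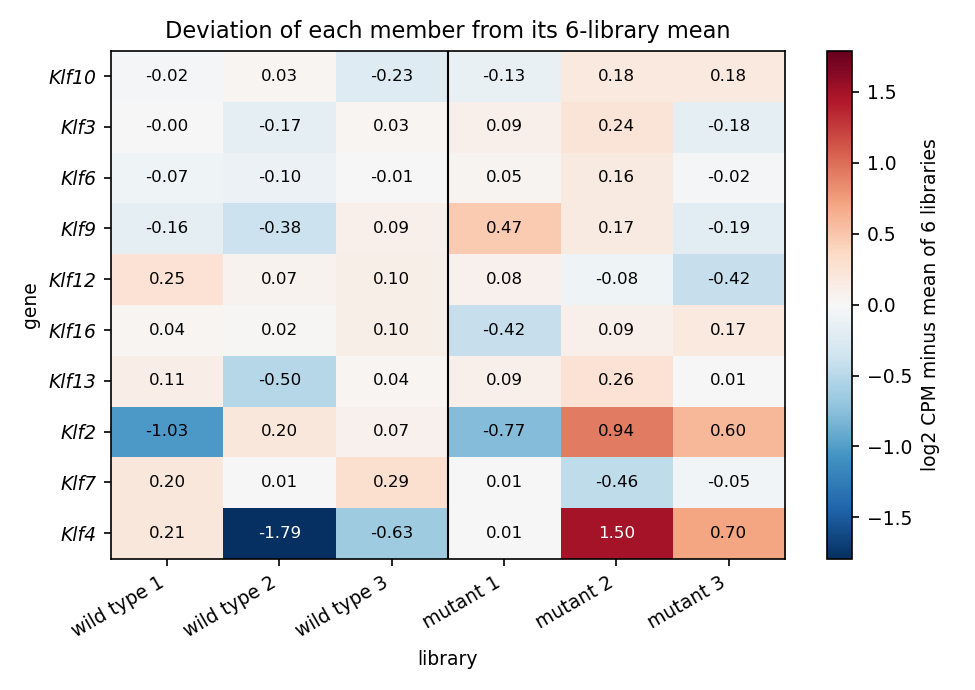
Deviation of log2 CPM from the mean of 6 libraries for each member (rows, by level) in each library (columns, wild type left of the line). Klf4 runs from -1.79 in wild-type replicate 2 to 1.496 in mutant replicate 2 and Klf2 from -1.03 in wild-type replicate 1 to 0.94 in mutant replicate 2, while Klf6 stays between -0.10 and 0.16.

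For the 3 members with the largest spread, the tested genes of at least 5 FPKM with the most similar pattern over the 6 libraries were found by the root-mean-square difference of log2 CPM deviations among 8894 candidates. Klf2 was closest to Rnaset2b (0.17), N4bp3 (0.19) and Dusp1 (0.28), the last a phosphatase gene of the immediate early response. Rnaset2b has a near-identical copy, so its reads are uncertain. Klf9 was closest to Tbc1d2 (0.065), N4bp2 (0.068) and Slc4a7 (0.077). Klf4 had no close match, the nearest being Ttc39a (0.57), Gm5874 (0.60) and Gm10071 (0.64). These are descriptions over 6 libraries that share depth and handling.

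Immediate early genes, the class to which several KLFs belong when cells are stressed, varied along with Klf2. Of 16 tested immediate early genes other than the members, 0 passed the test, 12 had higher and 4 lower values in mutant cells, and the median log2 fold change was 0.36. Their median deviation was -0.58, 0.03 and -0.01 in wild-type replicates 1 to 3 and -0.47, 0.35 and 0.54 in mutant replicates 1 to 3, so replicate 1 was lowest in each group as for Klf2. Fos had 1.515, 7.55 and 7.67 FPKM in wild type and 2.41, 31.4 and 46.8 FPKM in mutant libraries (log2 fold change 2.28, SE 0.96). Junb had 22.9, 28.9 and 29.0 FPKM in wild type and 25.0, 50.7 and 59.6 FPKM in mutant libraries (log2 fold change 0.75, SE 0.30). Both had an edgeR adjusted p of 0.999.

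Neutrophil markers split the libraries in a similar way. Of 12 tested markers 11 had higher values in mutant cells, none passed the test, and their summed FPKM over 13 genes was 35.3, 325 and 828 for wild type, beside 183, 858 and 1149 for mutant libraries. Replicate 1 of each group was again the lowest, and it was also the library with Y-linked reads in each group. S100a8, a neutrophil alarmin gene, had 11.8, 99.7 and 288 FPKM in wild type and 75.9, 355 and 445 FPKM in mutant libraries. Klf4 did not follow this order, since its lowest library was wild-type replicate 2 and replicate 1 was its highest wild-type library. The part of neutrophil RNA, of the sex of the cells and of the handling of single libraries in the Klf2 and Klf4 values was not tested, and with Y-linked reads as a covariate their log2 fold changes were 0.55 and 1.60.

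**Figure D4:**
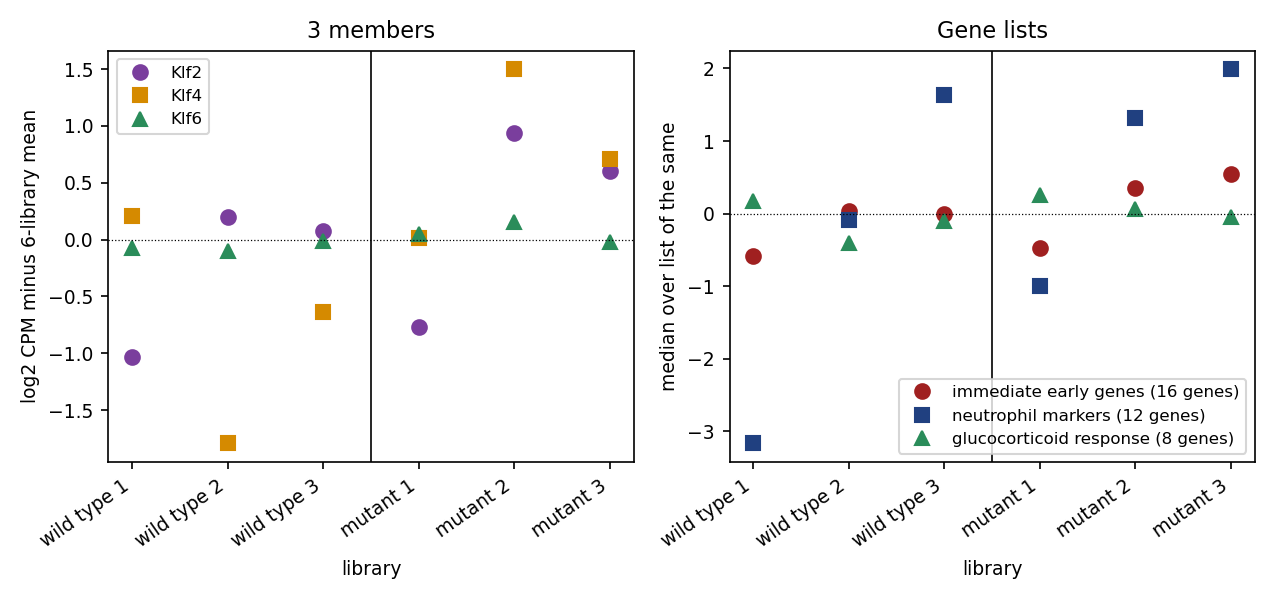
Left, log2 CPM minus the 6-library mean for Klf2, Klf4 and Klf6; right, the median of the same quantity over 16 immediate early genes, 12 neutrophil markers and 8 glucocorticoid response genes, each by library. Klf2, the immediate early genes and the neutrophil markers are lowest in replicate 1 of each group, and Klf6 stays near 0.

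Of 16 other Klf and Sp genes 9 were tested, 0 passed, 6 had higher and 3 lower values, and the median log2 fold change was 0.10. Sp3 was the most abundant at 47.8 to 52.5 FPKM with a log2 fold change of 0.024 (SE 0.088). Klf11, a Sin3-recruiting relative of Klf10, had 15.2, 17.3 and 14.4 FPKM in wild type and 12.8, 17.2 and 20.2 FPKM in mutant libraries, so it stood at about the level of Klf6. Klf8, which like Klf3 and Klf12 recruits CtBP, had 2.81, 2.63 and 2.44 FPKM in wild type and 3.16, 3.57 and 3.24 FPKM in mutant libraries. The groups of Klf8 did not overlap, yet its log2 fold change of 0.34 (SE 0.17) did not pass (edgeR adjusted p = 0.999). In CPM this lack of overlap held for 1 of the 9 tested genes, against 10.3% of all genes tested. Klf1, the red cell factor, ranged from 2.01 to 6.22 FPKM (log2 fold change -0.62, SE 0.47). Its lowest library, wild-type replicate 3, was also the lowest for summed erythroid markers, at 12.6 FPKM against 59.1 to 209 in the other libraries. That sum includes Klf1 itself, at 2.01 of the 12.6 FPKM, so the match is partly built in. Mutant replicate 1, where Klf1 was nearly as low at 2.09 FPKM, had the highest erythroid sum, 209 FPKM. By the median deviation over the 10 erythroid markers wild-type replicate 3 was again lowest, at -2.72. Mutant replicate 3 was then highest, at 0.72, against 0.37 in mutant replicate 1. The median log2 fold change of these markers was 1.55, with 6 higher and 4 lower values and 0 passing the test. Klf14, Klf17, Sp5, Sp6, Sp8 and Sp9 were listed at 0 in every library.

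Of 12 genes for the corepressors and coactivators that KLFs recruit 0 passed the test, 3 had higher and 9 lower values in mutant cells, with a median log2 fold change of -0.10. Ctbp1, the CtBP gene with the higher level, had 161, 158 and 156 FPKM in wild type and 153, 127 and 151 FPKM in mutant libraries. Its groups did not overlap, but the log2 fold change was -0.14 (SE 0.092). A lack of overlap in CPM held for 1 of these 12 genes, against 10.3% of all genes tested. Ctbp2 lay between 10.3 and 12.2 FPKM, Sin3a between 16.7 and 20.3 and Sin3b between 38.9 and 45.4, with log2 fold changes of 0.064, -0.092 and 0.025. The deacetylase gene Hdac1 had the largest value of the list, -0.30 (SE 0.23).

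Upstream of Klf2 and Klf4, the ERK5 kinase cascade acts through MEF2 factors. Of 7 genes of this cascade 0 passed, 5 had higher and 2 lower values, and the median was 0.11. Mapk7, which encodes ERK5 itself, had 8.23, 4.41 and 5.04 FPKM in wild type and 2.17, 5.25 and 2.25 FPKM in mutant libraries (log2 fold change -0.86, SE 0.40). Map3k2 had 1.94 to 2.18 FPKM in wild type and 2.22 to 3.65 FPKM in mutant libraries, without overlap (log2 fold change 0.44, SE 0.21). Groups without overlap in CPM were found for 1 of these 7 genes, against 10.3% of all genes tested. Mef2c, at 29.0 to 39.5 FPKM, had a log2 fold change of 0.11.

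Genes known to respond to Klf2 or to share its settings did not pass either. Of 6 tested trafficking genes linked to Klf2, 1 had a higher and 5 had lower values. S1pr1, the sphingosine phosphate receptor of lymphocyte egress, had 8.89, 6.65 and 12.6 FPKM in wild type and 7.24, 10.8 and 17.1 FPKM in mutant libraries (log2 fold change 0.33, SE 0.34). Of 8 cell cycle inhibitor genes 6 had higher and 2 lower values and 0 passed. Cdkn1a, a target of Klf4 and Klf6 in other cells, was at 1.62 to 3.45 FPKM in wild type and 2.14, 2.25 and 8.12 FPKM in mutant libraries, so a single mutant library was high (log2 fold change 0.90, SE 0.59).

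The hormone and cytokine settings of Klf9 and Klf10 were read from further lists. Of 8 glucocorticoid response genes 0 passed, 6 had higher and 2 lower values, with a median of 0.22. Tsc22d3, a classical glucocorticoid-induced gene, had 277, 150 and 141 FPKM in wild type and 351, 212 and 177 FPKM in mutant libraries (log2 fold change 0.38, SE 0.31). Klf9 and Tsc22d3 shared their lowest mutant library, replicate 3, and their highest library, mutant replicate 1, but not their lowest wild-type library. The median deviation over the 8 genes was 0.18, -0.40 and -0.10 in wild-type replicates 1 to 3. It was 0.25, 0.058 and -0.040 in mutant replicates 1 to 3. By that median the lowest wild-type, lowest mutant and highest libraries were those of Klf9, while the highest wild-type library differed. A link between Klf9 and these genes was not tested. The receptor gene Nr3c1 had a log2 fold change of -0.085 (95% interval including 0).

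Of 8 tested TGF-beta genes 0 passed, 4 had higher and 4 lower values, with a median of 0.046. Smad4, the shared Smad of the pathway, had 77.2, 69.2 and 52.2 FPKM in wild type and 51.1, 20.1 and 12.1 FPKM in mutant libraries. All mutant libraries were below all wild-type libraries, wild-type replicate 3 and mutant replicate 1 being close. The log2 fold change of -1.27 (SE 0.46) did not pass (edgeR adjusted p = 0.999). In CPM 1 of the 8 tested genes had groups without overlap, against 10.3% of all genes tested. The highest libraries of Klf10, an early target of the pathway, were mutant replicates 2 and 3, where Smad4 was lowest. Klf10 varied by 1.30 times between its lowest and highest library. Whether its level is tied to Smad4 or to the pathway was not tested. Of 10 genes of the cyclic AMP and CREB response, the arm that the CGRP receptor feeds, 0 passed and 9 had higher values, with a median of 0.090. Sik1, a kinase gene induced by CREB, had 2.55, 1.95 and 3.59 FPKM in wild type and 4.045, 5.46 and 3.89 FPKM in mutant libraries. Its groups did not overlap (log2 fold change 0.73 with SE 0.26, adjusted p = 0.999 by edgeR). Such a lack of overlap in CPM was seen for 1 of these 10 genes, near the 10.3% of all genes tested.

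In the authors' deposited table an adjusted p under 0.05 was given for 0 of 10 members, against 0.231% of its genes with such a value, and the largest log2 fold change of a member there was 1.51 for Klf4. Of 15 alternatives (13 for Klf4), none gave any member an adjusted p under 0.05. At an unadjusted p under 0.05 there were 3 member values among the alternatives. By edgeR they were Klf4 when wild-type replicate 1 was left out (unadjusted p = 0.0343), Klf4 without both replicate 1 libraries (unadjusted p = 0.0212) and Klf9 without mutant replicate 3 (unadjusted p = 0.0360, adjusted p = 0.639). The sign of the difference was the same under each alternative for 9 of 10 members, the exception being Klf16.

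**Figure D5:**
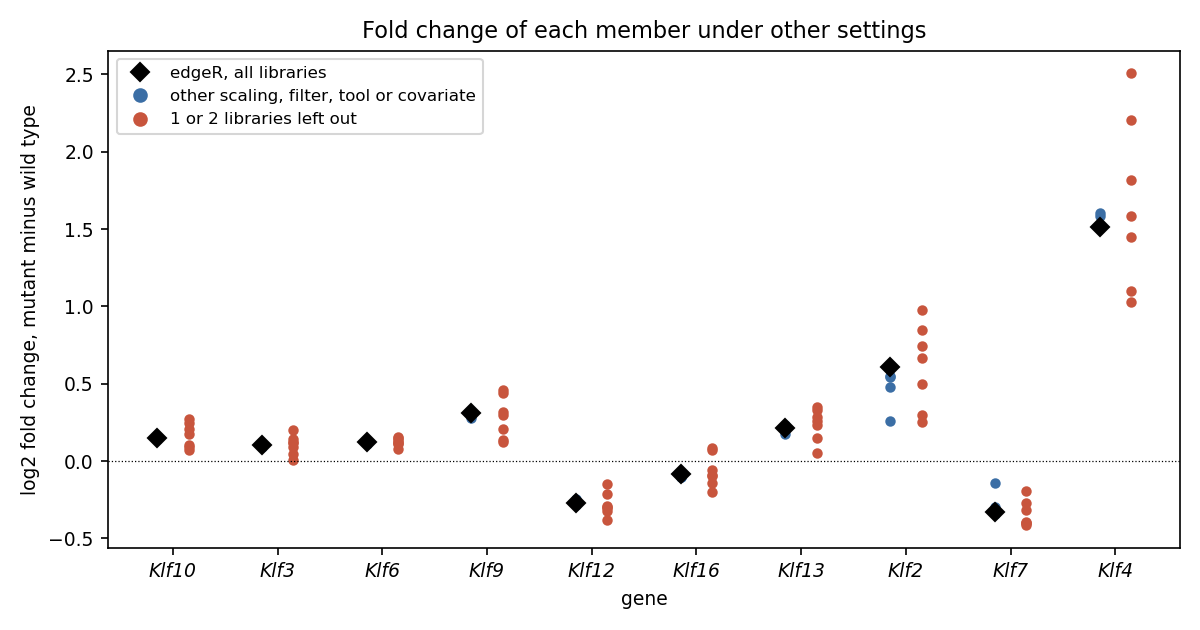
Log2 fold change, mutant minus wild type, of each member with all libraries (black diamond), with another scaling, filter, tool or covariate (blue) and with 1 or 2 libraries left out (red). Points lie close together for Klf3, Klf6 and Klf10, Klf16 crosses 0, and Klf4 ranges from 1.03 to 2.51.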

How the data were processed

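RNA-seq data of 6 HSC libraries, 3 per genotype as titled, were used. Listed in the submitters' processing notes, without role or order, are STAR, DESeq2, CASAVA, HTSeq 0.6.1 and the build mm10. The annotation release and the strand setting are not given in the sources used here, so reads of genes overlapping a member may be shared. A table deposited by the authors holds raw read counts, size-factor-normalized signal (not used), FPKM, log2 fold changes and p-values; a further deposited table holds FPKM. FPKM equals counts divided by gene length and library total, as checked on the values.

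edgeR 4.0.16 (R 4.3.3; TMM, filterByExpr, quasi-likelihood test) was fitted on all genes, with Benjamini-Hochberg adjustment and a two-sided threshold of 0.05. Standard errors were taken as the size of the log2 change over root F, and 95% intervals use the fit's degrees of freedom. Deviations are of log2 CPM with a prior count of 2. Alternatives were other scalings, no filter, DESeq2 1.42.0, limma 3.58.1 on log2 FPKM, libraries left out, the replicate number as a block and Y-linked reads as a covariate. The test was checked on simulated counts. The members, lists and rules were chosen with earlier results of these data known. The named genes were the members, Ramp1, up to 4 genes per list with at least 1 FPKM and the smallest unadjusted p, other Klf and Sp genes, the closest patterns, and markers. Ctbp2, Sin3a, Sin3b, Mef2c and Nr3c1 fall outside that rule and were added for their roles after their values were seen. Each of the 6 pairs of libraries within a group differed by more than sampling noise. Some results are not reported here.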

Additional observations from a re-analysis of the deposited data

How the results depend on the processing

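The count of members past an adjusted p of 0.05 was 0 under each of the 15 alternatives. Of 148 log2 fold changes of members under these, 146 kept their sign; the other 2 were those of Klf16, 0.082 without mutant replicate 1 and 0.071 without both libraries with Y-linked reads, against -0.084, and the cause was not tested. Leaving out single libraries gave Klf16 values from -0.20 to 0.082. Klf4 was below the FPKM filter of the limma fits, so these gave no value for it. Over all genes, 1 was called higher and 2 lower. DESeq2 called 21 higher and 23 lower, limma with a pseudocount of 1 or of 0.1 called 2 higher and 1 lower, and leaving out single libraries gave 1 to 2 higher and 1 to 4 lower. There were 2 higher with no filter on low counts. There was 1 lower gene with the replicate block, with Y-linked reads as a covariate and without both such libraries. Same-numbered libraries correlated at 0.14, 0.0018 and -0.094 in their deviations from group means, the first being the libraries with Y-linked reads. Libraries of different number correlated at -0.13 (wild-type replicate 2 with mutant replicate 1) to 0.15 (wild-type replicate 2 with mutant replicate 3). With so few libraries per group this neither shows nor excludes that libraries were paired. With the replicate block the count of called members stayed at 0, Klf2 had a log2 fold change of 0.54 and Klf4 1.58. Few reads limit what can be said of Klf2 and Klf4.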
